A study of Arabidopsis thaliana with 3 samples.

Results

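The 10 *Arabidopsis* genes described here are the heat stress transcription factor gene *HSFA2* and 9 heat shock protein (HSP) genes, namely *HSP101*, *HSP90.1*, *HSP70* (AT3G12580), *HSP17.4*, *HSP17.6C*, *HSP18.2*, *HSP17.6II*, *HSP22.0* and *HSP21*. They were taken by their locus identifiers from an expression table of 33559 loci. The rule uses no fold change, though where a locus has several entries it keeps the one with the larger mean. RNA-seq was performed on poly(A) RNA of 14-day-old seedlings, with 1 library each for *mms19-1*, *abo4* and the wild type (Col). All 3 are in the Col ecotype and share their growth conditions, which were MS agar, 3 days of cold at 4 °C, and then 22 °C with 16 h of light and 8 h of dark. The labels give no heat treatment, so every value is a level without imposed heat. *mms19-1* is a T-DNA insertion line in *MMS19*, whose product serves the cytosolic assembly of iron-sulfur clusters. The labels and methods name this allele, while 1 sentence of the study's text names another, *mms19-2*, and the labels were followed. *abo4* carries a weak missense allele of *ABO4*, which encodes the catalytic subunit of DNA polymerase epsilon, because null alleles are lethal to the embryo. The study set each mutant against the wild type to ask whether both affect the same genes.

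Heat shock proteins are chaperones that bind unfolded proteins. The small HSPs hold them in a soluble form without using ATP, the HSP70 and HSP90 families fold them, and HSP101 pulls them out of aggregates. Most of these genes are nearly silent in unstressed leaves and are switched on by heat stress transcription factors. Such factors bind heat shock elements, which are inverted repeats of the unit GAA, and HSFA2 is itself made in response to heat and prolongs the expression of the others.

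The promoter sequences show what the 10 genes have in common before any expression value is considered. Both strands were searched for pairs of inverted units (GAANNTTC or TTCNNGAA) and for triplets, in which a pair is followed by a further NNGAA or NNTTC so that the units alternate and both pairs are contained. From 250 bases before to 50 bases after the annotated gene start, a pair was found for 6 of the 10 genes, against 19.3% of 27443 RefSeq genes searched in the same way. A triplet was found for 4 of the 10 genes, against 0.481% of these genes. The annotated start of *HSP90.1* is its start codon, so a second window of 500 bases before the start codon was added after the first search had been seen. In that window all 10 genes held a pair, against 33.9% of genes, and 7 held a triplet, against 1.2%. A match is only a match of letters and does not show that a factor binds. The sequences below are 1 site for each gene, read 5′ to 3′ on the strand of the gene from RefSeq assembly TAIR10.1, with the matched element in capitals. The first 7 are triplets and the last 3 are pairs.
HSFA2, chr2:11135528-11135556, plus strand: ttagtaacGAAGTTTCTGGAAcattgtct
HSP90.1, chr5:21352254-21352282, plus strand: aacgaaaaGAACTTTCTGGAAttcgtttg
HSP70, chr3:3993846-3993874, minus strand: ttactcgtGAACGTTCTCGAAagctcttt
HSP17.4, chr3:16984946-16984974, minus strand: tcaacataGAAGCTTCTTGAAgccacctg
HSP17.6C, chr1:19980238-19980266, plus strand: caacaccaGAAACTTCTTGAAagcacctg
HSP18.2, chr5:24062388-24062416, plus strand: caacaaacGAAACTTCCTGAAatgccaag
HSP22.0, chr4:6370379-6370407, plus strand: aaagatatTTCAAGAAACTTCttcattct
HSP101, chr1:27940323-27940350, minus strand: taaaataagcGAAAATTCcacgtgacat
HSP17.6II, chr5:3883036-3883063, minus strand: accaagacgtTTCTCGAAcaatacggaa
HSP21, chr4:13820054-13820081, minus strand: aacgagtcgaGAAACTTCgtatcaaatc

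The elements do not sit at a fixed place. The triplet of *HSFA2* begins 88 bases before the annotated gene start, and that of *HSP17.6C* begins 53 bases before it. *HSP17.4* has a pair of triplets, which begin 99 and 18 bases before its start. In *HSP70*, *HSP18.2* and *HSP22.0* the triplet lies 20, 73 and 49 bases after the annotated start, between it and the start codon. The only element found for *HSP101* begins 29 bases after its start. The map of the elements shows them on the scale of the start codon.

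**Figure D1:**
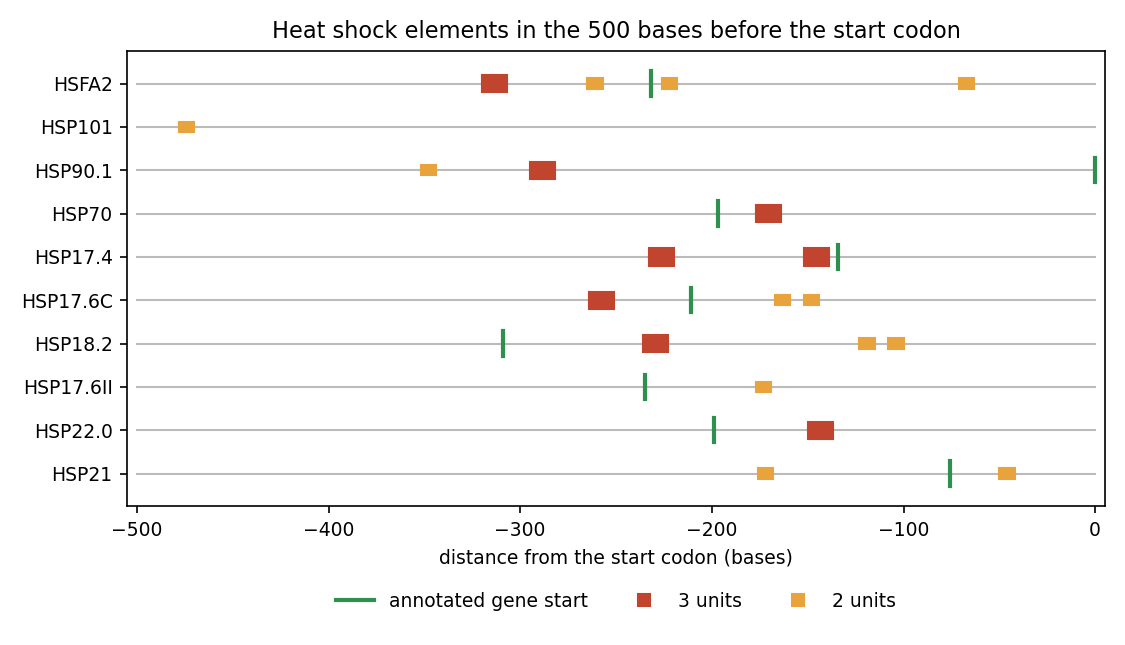
Heat shock elements in the 500 bases before the start codon of each of the 10 genes, plotted by distance from the start codon in bases. Red boxes are triplets of the GAA unit, orange boxes are pairs outside a triplet, and green lines mark the annotated gene start where it falls in the window. A triplet is present in 7 genes, with 2 of them in *HSP17.4*, and the other 3 genes hold pairs only.

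Levels are given as FPKM, the number of sequenced fragments scaled to the length of the transcript and to the size of the library, which allows genes of different length to be compared. The recovered scaling gives 51400278 reads for the *mms19-1* library and 49696075 for *abo4*, against 56114183 for the wild type. *MMS19*, the gene disrupted in *mms19-1*, had 0.228 FPKM in *mms19-1* and 9.01 FPKM in *abo4*, against 10.1 FPKM in the wild type, so the library labelled *mms19-1* held 2.25% of the wild-type level. *ABO4* had 6.95 FPKM in *mms19-1* and 8.09 FPKM in *abo4*, against 5.03 FPKM in the wild type, and a missense allele is not checked by its level. None of 6 leaf and shoot markers, 6 root markers and 9 reference genes differed more than 2-fold between any 2 libraries. With 1 library per genotype there is no replicate check and no test of genotype, and both mutants are compared with the same wild-type library. The 95% exact intervals below are computed from the reads behind each FPKM and cover counting error only. They take each read as independent, which reads copied by PCR are not, so they may be too narrow. In whole seedlings, fewer cells that express a gene and less RNA per cell cannot be told apart.

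The 10 genes spanned a wide range of levels. *HSP70* was highest in every library, and *HSP22.0* was lowest. The ratio of the highest level to the lowest level above 0 was 985 in *mms19-1*, 552 in *abo4* and 1629 in the wild type. In the wild type the order was *HSP70*, *HSP90.1*, *HSP18.2*, *HSP101*, *HSFA2*, *HSP17.4*, *HSP17.6C*, *HSP17.6II*, *HSP21* and *HSP22.0*. The order in *mms19-1* differed only in that *HSP17.6II* stood above *HSP17.6C*. In *abo4*, *HSP18.2* also stood above *HSP90.1*, and *HSP17.4* stood above *HSFA2*. Only *HSP70*, *HSP90.1*, *HSP18.2* and *HSP101* averaged 1 FPKM or more across libraries, and *HSFA2*, with a mean of 0.999 FPKM, missed that limit narrowly. Of the 26416 loci with a value above 0, 85.7% had a lower mean than *HSP70*, 25.1% had a lower mean than *HSFA2*, and 7.4% had a lower mean than *HSP22.0*.

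**Figure D2:**
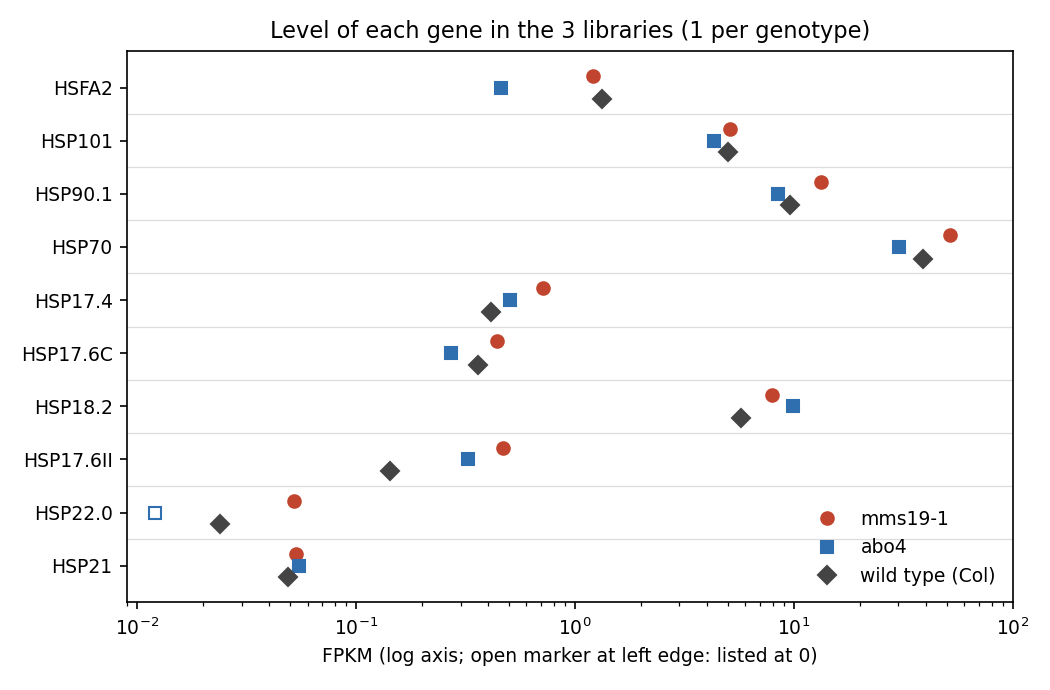
Level of each of the 10 genes in FPKM (log axis) in the *mms19-1* (circles), *abo4* (squares) and wild-type (diamonds) libraries, 1 library per genotype. *HSP70* lies between 30.3 and 51.4 FPKM and *HSP21* between 0.0486 and 0.0548 FPKM, *HSFA2* is set apart by its low *abo4* value of 0.458 FPKM, and the open square marks *HSP22.0*, listed at 0 in *abo4*.

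*HSFA2* (AT2G26150, chromosome 2, 11135624 to 11137792, plus strand) encodes the factor that maintains the heat response. It had 1.21 FPKM in *mms19-1* and 0.458 FPKM in *abo4*, against 1.32 FPKM in the wild type, so that *abo4* was low and the other libraries were close to each other. *abo4* had 34.6% of the wild-type level, with an interval of 18.1 to 62.4%. *mms19-1* had 91.8% of the wild-type level, with an interval of 59.3 to 141%, which includes no difference. The log2 ratio of FPKM + 0.1 was -1.35 in *abo4* and -0.12 in *mms19-1* over the wild type, and -1.24 in *abo4* over *mms19-1*. With 1 FPKM added in place of 0.1, the ratio of *HSFA2* in *abo4* over the wild type was -0.67, which does not pass 2-fold. Of all 26416 loci, 357 (1.35%) had a lower ratio in *abo4* over the wild type than *HSFA2*. *HSFA2* has 4 annotated transcripts, so its reads could only be placed in a range, from 15.2 to 38.0 in *abo4*, from 41.8 to 104 in *mms19-1* and from 49.7 to 124 in the wild type. With the upper estimates the interval for *abo4* narrows to 23.4 to 50.1%. None of the 1832 possible 45-base reads of its longest transcript matched another locus with up to 2 mismatches.

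The 5 loci whose pair of log2 ratios lay closest to that of *HSFA2*, among 19771 loci that averaged 1 FPKM or more, were *WRKY8*, *LINC4*, *NET1D*, AT2G37030 and *NPX1*. The likeness is a distance of 0.020 to 0.054 on the log2 scale over 3 libraries, so it rests on 2 ratios per gene. *WRKY8*, a transcription factor gene, had 1.38 FPKM in *mms19-1* and 0.529 FPKM in *abo4*, against 1.49 FPKM in the wild type. *LINC4*, which encodes a coiled-coil protein of the nuclear periphery, had 30.1 FPKM in *mms19-1* and 12.5 FPKM in *abo4*, against 31.8 FPKM in the wild type. Of the 9 HSP genes only *HSP70*, *HSP90.1*, *HSP18.2* and *HSP101* were at a level to be searched, and they were not among these loci.

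*HSP70* (AT3G12580, chromosome 3, 3991117 to 3993886, minus strand) encodes a heat-inducible cytosolic HSP70. It had 51.4 FPKM in *mms19-1* (5493 reads) and 30.3 FPKM in *abo4* (3124 reads), against 39.0 FPKM in the wild type (4545 reads). Its level stood above the wild type in *mms19-1* and below it in *abo4*. The *mms19-1* level was 132% of the wild-type level (127 to 137%), and the *abo4* level was 77.6% of it (74.1 to 81.3%). *abo4* had 58.8% of the *mms19-1* level (56.3 to 61.5%).

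*HSP90.1* (AT5G52640, chromosome 5, 21352557 to 21355147, plus strand) encodes the heat-inducible cytosolic HSP90. It had 13.3 FPKM in *mms19-1* (1551 reads) and 8.49 FPKM in *abo4* (958 reads), against 9.65 FPKM in the wild type (1229 reads). The order of the libraries was the same as for *HSP70*. The *mms19-1* level was 138% of the wild-type level (128 to 149%), and the *abo4* level was 88.0% of it (80.8 to 95.9%). *abo4* had 63.9% of the *mms19-1* level (58.9 to 69.3%).

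*HSP101* (AT1G74310, chromosome 1, 27936508 to 27940369, minus strand) encodes the disaggregase needed for acquired thermotolerance. It had 5.09 FPKM in *mms19-1* (775 reads) and 4.32 FPKM in *abo4* (635 reads), against 4.98 FPKM in the wild type (828 reads). It varied least among the genes with at least 1 FPKM. The *mms19-1* level was 102% of the wild-type level (92.5 to 113%), an interval that includes no difference, and the *abo4* level was 86.6% of it (78.0 to 96.1%). Of its possible 45-base reads, 2.99% match another locus with up to 2 mismatches, and a neighbouring gene on the other strand overlaps 101 of its bases.

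Among the cytosolic small HSPs of class I, *HSP18.2* (AT5G59720, chromosome 5, 24062323 to 24063300, plus strand) was the most abundant of those described here. It had 7.95 FPKM in *mms19-1* (203 reads) and 9.92 FPKM in *abo4* (245 reads), against 5.70 FPKM in the wild type (159 reads). Both mutants stood above the wild type, and *abo4* stood above *mms19-1*, unlike *HSP70* and *HSP90.1*. The level was 139% of the wild-type level in *mms19-1* (113 to 173%) and 174% in *abo4* (142 to 214%). *abo4* had 125% of the *mms19-1* level (103 to 151%).

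The other class I genes among the 10 genes were near the limit of detection. *HSP17.4* (AT3G46230, chromosome 3, 16984118 to 16984867, minus strand) had 0.711 FPKM in *mms19-1* and 0.503 FPKM in *abo4*, against 0.411 FPKM in the wild type. These values rest on 19 reads in *mms19-1* and 13 in *abo4*, against 12 in the wild type. Its *mms19-1* level was 173% of the wild-type level, with an interval of 79.7 to 391%. Other annotated loci cover 513 bases of *HSP17.4*, and the strand used in counting is not given in the sources used here, so its reads cannot be told apart from theirs. *HSP17.6C* (AT1G53540, chromosome 1, 19980299 to 19981199, plus strand) had 0.438 FPKM in *mms19-1* and 0.272 FPKM in *abo4*, against 0.361 FPKM in the wild type. With 10 reads in *mms19-1*, 6 in *abo4* and 9 in the wild type, a difference was not detectable at this depth for *HSP17.6C*.

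*HSP17.6II* (AT5G12020, chromosome 5, 3882231 to 3883111, minus strand) encodes a cytosolic small HSP of class II. It had 0.469 FPKM in *mms19-1* and 0.323 FPKM in *abo4*, against 0.143 FPKM in the wild type, so the wild type was lowest. The log2 ratio of FPKM + 0.1 was 1.23 in *mms19-1* and 0.80 in *abo4* over the wild type. Only 9 to 15 reads in *mms19-1*, 6 to 10 in *abo4* and 3 to 5 in the wild type lie behind these values. The *mms19-1* level was 328% of the wild-type level. With the lower read estimate the interval of 81.7 to 1881% includes no difference, and with the upper estimate the interval of 113 to 1152% does not. In *abo4* the level was 226% of the wild-type level, and both intervals (48.2 to 1396% and 70.3 to 842%) include no difference.

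Among the 10 genes, the small HSPs of organelles were hardly detected. *HSP22.0* (AT4G10250, chromosome 4, 6370338 to 6371372, plus strand), which acts in the endoplasmic reticulum, had 2 reads in *mms19-1* and 0 in *abo4*, against 1 in the wild type. *HSP21* (AT4G27670, chromosome 4, 13818825 to 13819971, minus strand), which acts in the chloroplast, had 2 reads in each library. A count of 0 allows up to 3 reads, so no ratio is given for *HSP22.0* or *HSP21*, and their levels of at most 0.0548 FPKM say only that the transcripts were rare.

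**Figure D3:**
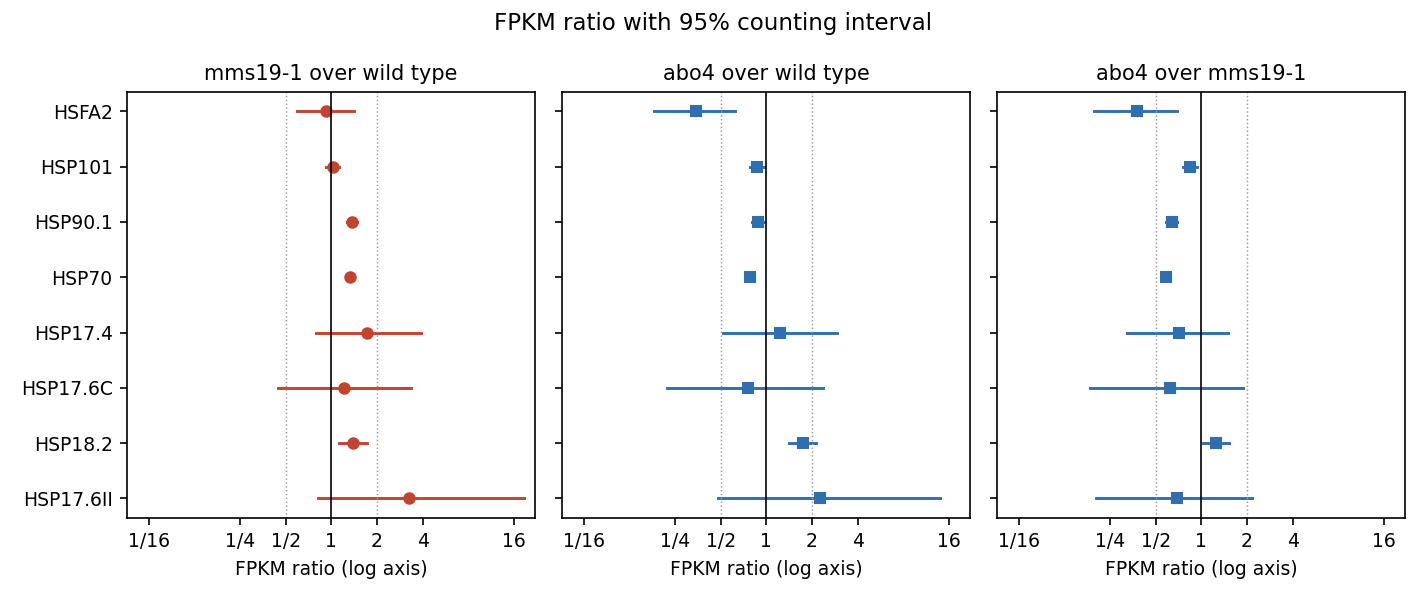
FPKM ratio of *mms19-1* over wild type, *abo4* over wild type and *abo4* over *mms19-1* (log axes) for the 8 genes with more than 3 reads in a library, with 95% exact counting intervals as bars and dotted lines at 2-fold. The interval lies above 1 in *mms19-1* for *HSP90.1*, *HSP70* and *HSP18.2*, and in *abo4* it lies below 1 for *HSFA2*, *HSP101*, *HSP90.1* and *HSP70* and above 1 for *HSP18.2*.

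Seen together in *mms19-1* over the wild type, 1 of the 10 genes (*HSP17.6II*) passed 2-fold upwards, against 2.38% of all 26416 loci, and 0 passed it downwards, against 1.64%. In *abo4* over the wild type, 0 of the 10 genes passed 2-fold upwards, against 3.87% of all loci, and 1 (*HSFA2*) passed it downwards, against 2.58%. A single gene is too few to set against these shares. With the limit at 1.5-fold, 2 of the 10 genes (*HSP17.4* and *HSP17.6II*) were higher in *mms19-1*, against 5.28% of loci, and 0 were lower, against 4.49%. At the same limit 2 (*HSP18.2* and *HSP17.6II*) were higher in *abo4*, against 9.14%, and 1 (*HSFA2*) was lower, against 6.86%. In *abo4* over *mms19-1*, 4 (*HSFA2*, *HSP90.1*, *HSP70* and *HSP22.0*) were lower by more than 1.5-fold, against 7.42%, and 0 were higher, against 9.36%, although *HSP22.0* rests on 2 reads or fewer. The median log2 ratio of the 10 genes was 0.35 in *mms19-1* over the wild type and -0.19 in *abo4* over the wild type, beside medians of -0.01 and 0.00 over all loci. In *abo4* over *mms19-1* the median was -0.48, beside 0.02 over all loci, 1 gene (*HSFA2*) passed 2-fold downwards, against 3.26% of loci, and 0 passed it upwards, against 3.6%.

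Of the 8 genes with more than 3 reads in a library, 7 stood above the wild type in *mms19-1* and 1 below it, while 45.9% of all loci stood above it. In *abo4*, 3 of these genes stood above the wild type and 5 below it, while 50.5% of all loci stood above it. For the 4 genes that averaged 1 FPKM or more, the interval in *mms19-1* over the wild type lay above 1 for 3 (*HSP70*, *HSP90.1* and *HSP18.2*), against 20.6% of 19699 loci of that level, and below 1 for 0, against 27%. In *abo4* over the wild type it lay below 1 for 3 (*HSP70*, *HSP90.1* and *HSP101*), against 32.1%, and above 1 for 1 (*HSP18.2*), against 28.5%. In *abo4* over *mms19-1* it lay below 1 for the same 3 genes, against 29.6%, and above 1 for *HSP18.2*, against 31.4%. An interval that excludes 1 is thus common in these libraries, and it says nothing of the spread between plants.

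The wider heat response was described with 5 further lists of 74 genes, of which 73 were analysed. In *mms19-1* over the wild type, 1 of the 73 genes passed 2-fold upwards and 0 downwards, with a median log2 ratio of 0.00. In *abo4* over the wild type, 2 passed it upwards and 1 downwards, with a median of -0.02. In *abo4* over *mms19-1*, 1 passed it upwards and 3 downwards, with a median of -0.06. The shares were 1.37% upwards in *mms19-1* over the wild type, 2.74% upwards and 1.37% downwards in *abo4* over the wild type, and 1.37% upwards and 4.11% downwards in *abo4* over *mms19-1*. Over all loci the shares were 2.38% upwards and 1.64% downwards in *mms19-1* over the wild type, and 3.87% and 2.58% in *abo4* over it. In *abo4* over *mms19-1* they were 3.6% upwards and 3.26% downwards. With at most 3 genes behind each share of the 73 genes, a difference from all loci was not tested.

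Among 19 other heat stress transcription factor genes, the largest difference was at *HSFA6A*, a class A factor gene known for its response to salt and abscisic acid. It had 19.9 FPKM in *mms19-1* and 1.93 FPKM in *abo4*, against 17.3 FPKM in the wild type. Its *abo4* level was 11.2% of the wild-type level (8.46 to 14.5%), and 87 of 26416 loci (0.329%) had a lower ratio. *HSFA2* and *HSFA6A* thus were both low in *abo4* and close to the wild type in *mms19-1*. *HSFB3* was more than 2-fold higher in *abo4*, with 0.843 FPKM in *mms19-1* (23 reads) and 1.29 FPKM in *abo4* (34 reads), against 0.504 FPKM in the wild type (15 reads). Its *abo4* level was 256% of the wild-type level, with a wide interval of 136 to 506%. *HSFB3* is named after its values were seen because its mean was below 1 FPKM. The median log2 ratio of the 19 genes was -0.10 in *mms19-1* and -0.24 in *abo4* over the wild type. In *mms19-1*, 12 of the 19 genes were lower and 7 higher, while 45.9% of all loci were higher. In *abo4*, 14 were lower and 5 higher, while 50.5% of all loci were higher. *HSFA1A*, a constitutive factor that starts the heat response, had 7.59 FPKM in *mms19-1* and 5.93 FPKM in *abo4*, against 7.69 FPKM in the wild type. The log2 ratio in *abo4* over the wild type was -0.37 for *HSFA1A*, -0.18 for *HSFA1B*, -0.08 for *HSFA1E* and 0.14 for *HSFA1D*. *HSFA3* had 0.938 FPKM in *mms19-1* and 2.62 FPKM in *abo4*, against 1.33 FPKM in the wild type. Its *abo4* level was more than 2-fold above that in *mms19-1*. *HSFB2B*, a repressor that is itself induced by heat, had 6.48 FPKM in *mms19-1* and 4.72 FPKM in *abo4*, against 9.06 FPKM in the wild type.

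Of 11 other small HSP genes, 1 was more than 2-fold higher in *mms19-1*. This was *HSP17.6A* (AT5G12030), the other class II gene and the next locus to *HSP17.6II*, with 1.32 FPKM in *mms19-1* (29 reads) and 0.471 FPKM in *abo4* (10 reads), against 0.501 FPKM in the wild type (12 reads). Its *mms19-1* level was 264% of the wild-type level (131 to 568%), and it too is named after its values were seen. Only 1 of the 837 possible 45-base reads of *HSP17.6II* matches *HSP17.6A* with up to 2 mismatches. Among the other small HSPs that averaged 1 FPKM or more, the largest difference was at the mitochondrial *HSP23.5*, with 4.33 FPKM in *mms19-1* and 1.97 FPKM in *abo4*, against 3.89 FPKM in the wild type. The median log2 ratio of the 11 genes was 0.38 in *mms19-1* and 0.03 in *abo4* over the wild type. Summed over the 6 class I small HSPs, the level was 19.7 FPKM in *mms19-1* and 20.2 FPKM in *abo4*, against 13.9 FPKM in the wild type, and *HSP18.2* is the largest part of it in *mms19-1* and *abo4* as in the wild type. Summed over all 17 small HSPs, the level was 164 FPKM in *mms19-1* and 143 FPKM in *abo4*, against 158 FPKM in the wild type. Most of this sum is *HSP18.5*, with 103 FPKM in *mms19-1* and 78.2 FPKM in *abo4*, against 106 FPKM in the wild type. The sum therefore says little of the other small HSPs.

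Of 11 other cytosolic HSP70, HSP90 and HSP110 genes, *HSP70-2* was more than 2-fold higher in *abo4*. It had 9.59 FPKM in *mms19-1* and 13.9 FPKM in *abo4*, against 6.81 FPKM in the wild type, and its *abo4* level was 204% of the wild-type level (187 to 223%). Its order across the libraries thus differed from that of the heat-inducible *HSP70*. *HSC70-1*, the constitutive and most abundant HSP70, had 1168 FPKM in *mms19-1* and 1188 FPKM in *abo4*, against 1273 FPKM in the wild type. None of 17 co-chaperone and other heat-response genes and none of 15 organelle and endoplasmic reticulum chaperone genes differed more than 2-fold in either mutant. Among genes that averaged 1 FPKM or more, the largest difference in the first of these lists was at *MBF1C*, a transcriptional coactivator required for thermotolerance, with 52.3 FPKM in *mms19-1* and 32.4 FPKM in *abo4*, against 53.4 FPKM in the wild type. In the second list, at the same level, it was at *HSP90.5*, the HSP90 of the chloroplast, with 109 FPKM in *mms19-1* and 92.0 FPKM in *abo4*, against 116 FPKM in the wild type.

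**Figure D4:**
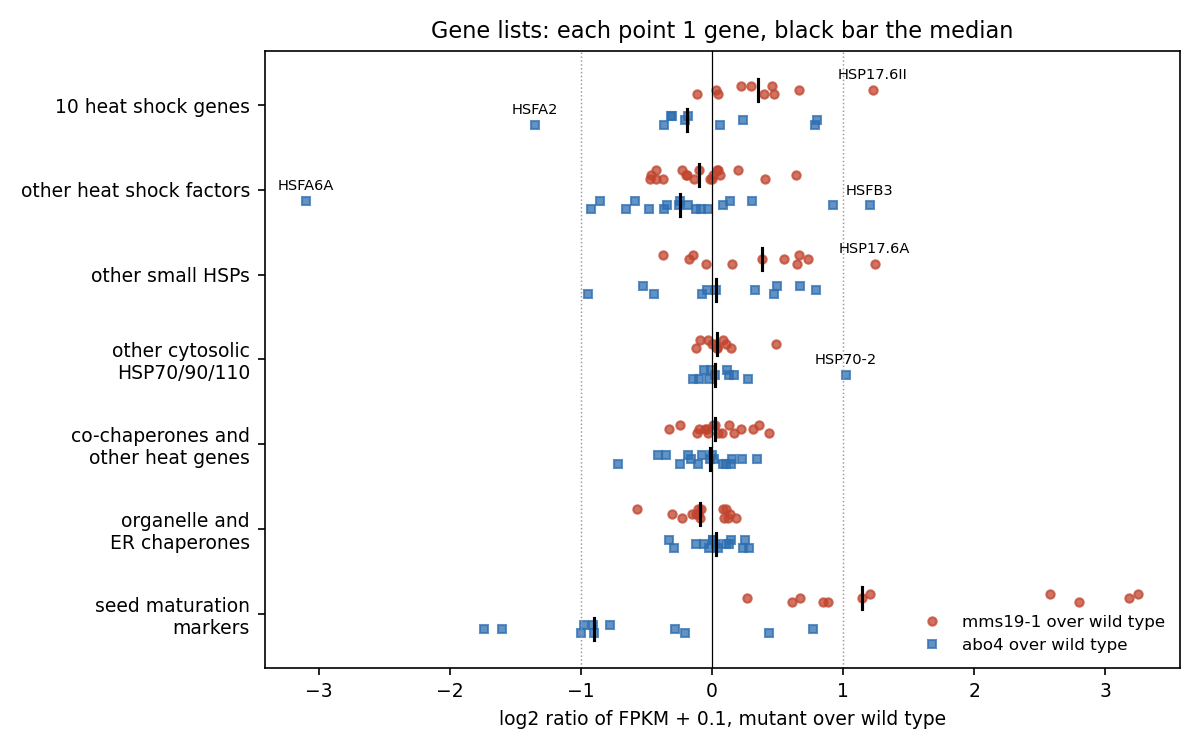
Log2 ratio of FPKM + 0.1 in *mms19-1* (circles) and *abo4* (squares) over the same wild-type library, for the 10 genes, the 5 other heat-response lists and the seed maturation markers, with black bars at the medians and dotted lines at 2-fold. Most heat-response genes lie between the dotted lines, *HSFA2* (-1.35) and *HSFA6A* (-3.10) lie to the left in *abo4*, and the seed markers lie to the right in *mms19-1*, with a median of 1.14.

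Small HSPs are also made in ripening seeds, and transcripts of seed maturation moved in the same direction as several of the 10 genes. All 11 seed maturation markers (seed storage proteins, EM proteins and oleosins) stood above the wild type in *mms19-1*, against 45.9% of all 26416 loci. Of the 11, 6 did so by more than 2-fold, against 2.38% of loci, and the median log2 ratio was 1.14. In *abo4*, 9 of the 11 stood below the wild type and 2 above it, while 50.5% of all loci stood above it. Of the 11, 2 were lower by more than 2-fold, against 2.58% of loci, and the median was -0.90. Some markers rest on few reads, such as *CRB* with 7 in the wild type and *EM1* with 5 in *abo4*. Their summed level was 44.2 FPKM in *mms19-1*, with single markers from 1.02 to 18.8 FPKM, and 11.8 FPKM in *abo4*, with markers up to 5.03 FPKM, against 20.0 FPKM in the wild type, with markers from 0.0873 to 10.1 FPKM. The storage protein gene *CRB* was listed at 0 in *abo4*, and no marker was at 0 in the other libraries. *HSFA9*, the factor of seed maturation, had 0.0893 FPKM in *mms19-1* and 0.0923 FPKM in *abo4*, against 0.0818 FPKM in the wild type. With 4 to 6 reads in each library, a difference in *HSFA9* was not detectable at this depth. With the lower read estimate its interval was 20.3 to 586% of the wild-type level in *mms19-1* and 21.0 to 606% in *abo4*. Like the summed markers, 5 of the 10 genes (*HSP101*, *HSP90.1*, *HSP70*, *HSP17.6C* and *HSP22.0*) were listed highest in *mms19-1* and lowest in *abo4*, as were 16.9% of all 26416 loci. The counting intervals separate *mms19-1* and *abo4* from the wild type only for *HSP70* and *HSP90.1* among these 5. The small HSPs among them, *HSP17.6C* and *HSP22.0*, had at most 10 reads in a library. The small HSPs *HSP18.2*, *HSP17.4* and *HSP17.6II* did not follow this order and were listed above the wild type in *abo4*. Of these, only *HSP18.2* had an interval in *abo4* that excluded no difference. The part of seed transcripts in the levels of the 10 genes was not tested.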

How the data were processed

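The authors aligned 45-base reads to the TAIR10 genome with TopHat2 2.0.12, allowing up to 2 mismatches, and computed FPKM per gene with Cufflinks 2.0.1 and Cuffdiff. The deposited table holds these FPKM values for 3 libraries, without replicates, in 34133 entries. The treatment of reads with several alignments and the strand used in counting are not given in the sources used here. Where a locus had several entries, the one with the larger mean was used, which left out 574.

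Ratios are log2 of FPKM + 0.1, which understates differences of low genes, and 2-fold was the limit. No test between genotypes was made. Whole reads were recovered by finding the read numbers that give a gene's 3 FPKM values. Of 1917 loci with a single transcript and few reads, 95.5% came out within 0.01 read of whole numbers. Genes with more reads, such as *HSP70*, *HSP90.1*, *HSP101* and *HSP18.2*, were not covered by this check, so their read numbers are less sure. For *HSFA2* a range was taken from possible transcript lengths. Intervals are 95% exact (Clopper-Pearson) on the share of reads. In a simulated *mms19-1* over wild type comparison of 32815 genes, used to test the calculation, all 200 genes changed 4-fold were recovered. These genes were drawn from those with many reads, and only counting error was simulated. The simulation therefore says nothing of genes with few reads, such as *HSP17.6II*, or of differences between plants. Positions and sequences are from RefSeq TAIR10.1, and all 1130 loci whose position the study's tables give overlapped it. Possible 45-base reads were matched with bwa 0.7.19. Python 3.11.15, numpy 2.4.6, pandas 2.3.3, scipy 1.17.1 and matplotlib 3.10.9 were used.

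The 10 genes and all lists were chosen with earlier results of these data known. The rule for naming other genes took, from each of the 5 lists, the genes past 2-fold with a mean of at least 1 FPKM, or else the gene with the largest log2 ratio at that level, and the 5 loci nearest to *HSFA2*. *HSFA1A*, *HSFA1B*, *HSFA1D*, *HSFA1E*, *HSFA3*, *HSFB2B*, *HSFA9*, *HSC70-1*, *HSFB3*, *HSP17.6A* and *HSP18.5* fall outside this rule and were chosen after their values were seen. *HSFB1* was not analysed here. The alternatives were pseudocounts of 1 and 0.01 FPKM, centred ratios, summed entries, a minimum mean of 1 FPKM, and limits of 1.5-fold and 4-fold.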

Additional observations from a re-analysis of the deposited data

How the results depend on the processing

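The counts of genes past 2-fold rest on genes of low level. In *mms19-1* over the wild type, 1 of the 10 genes was higher, against 0 with a pseudocount of 1 FPKM, 0 among genes that averaged 1 FPKM or more, 0 at a 4-fold limit and 2 at a 1.5-fold limit. In *abo4* over the wild type, 0 were higher, against 1 with a pseudocount of 0.01 FPKM and 2 at 1.5-fold. In the same comparison 1 was lower, against 2 with a pseudocount of 0.01 FPKM, 0 with a pseudocount of 1 FPKM, 0 among genes that averaged 1 FPKM or more, where *HSFA2* is left out, and 0 at 4-fold. These counts follow from the construction of each alternative. The median log2 ratio of the 10 genes ranged from 0.18 to 0.43 in *mms19-1* over the wild type, from -0.20 to -0.07 in *abo4* over the wild type and from -0.58 to -0.18 in *abo4* over *mms19-1*, including a set without *HSP22.0* that was added after the data were examined. All 120 ratios of single genes under the alternatives kept their sign. A change of pseudocount cannot alter a sign, and summed entries left these ratios unchanged, so only centring could have altered one. Of the 120 ratios 1 moved, that of *HSFA2* in *abo4* over the wild type with a pseudocount of 1 FPKM, to -0.67. No paired analysis was possible because each genotype has 1 library. Depth limits the genes below 1 FPKM, since *HSP17.4*, *HSP17.6C*, *HSP17.6II*, *HSP22.0* and *HSP21* had at most 19 reads in a library.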
